A study of Homo sapiens with 12 samples.

Results

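ESF1, a nucleolar protein needed for the early steps that turn precursor RNA into the RNA of the small ribosomal subunit, was the leading gene of a set of 51 nucleolar ribosome biogenesis factors examined in HepG2 cells with altered thiosulfate sulfurtransferase (TST). The set was read by gene symbol from the 57500 genes counted in each library, and all 51 were found. ESF1 was picked because its transcript was higher with TST overexpression, so its values there are a description without a test. The other 50 genes were listed for their function, with earlier results of these data known. They were grouped by role into 3 genes of rRNA gene transcription by RNA polymerase I, 3 of the box C/D and 5 of the box H/ACA snoRNPs, 3 abundant nucleolar proteins, 20 small-subunit (40S) factors with ESF1 among them, and 17 factors of 60S assembly.

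Ribosomes are built in the nucleolus, where RNA polymerase I transcribes the rRNA genes into 1 long precursor. Small nucleolar RNAs guide its chemical modification in particles called snoRNPs, which methylate the precursor when they carry the box C/D motif and convert uridine to pseudouridine when they carry the box H/ACA motif. The precursor is folded and cut in the small-subunit processome, and the subunits mature on separate lines of assembly factors before export. Hepatocytes and hepatoma cells make large amounts of secreted protein and depend on a steady supply of ribosomes.

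HepG2 is a human hepatocellular carcinoma line, and TST is the mitochondrial enzyme that converts cyanide to thiocyanate. RNA was sequenced from wild-type cells (WT), cells with TST silenced by a short hairpin RNA (shTST) and cells overexpressing TST (OE-TST), 4 replicates of each. All 3 groups were kept in 0.4 mM glycine, the content of standard medium, for 24 h. OE-TST cells carried a lentiviral, CMV-driven, codon-optimized TST under blasticidin selection. The methods place the TST shRNA plasmid in the same lentiviral procedure and name blasticidin for selecting transduced cells. WT cells are not described as transduced, so changes shared by both engineered lines cannot be told apart from effects of this handling. No empty-vector line was among these libraries, and whether a line was 1 clone is not given in the sources used here. The methods define independent experiments in general as ones done on different days. The labels do not say whether these replicates came from separate cultures, so p-values may measure only the spread between these libraries, which may be technical.

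Libraries held 28866175 to 45120508 counts in WT, 27527854 to 33865386 in shTST and 22911380 to 27414142 in OE-TST. The mitochondrially encoded share was 6.91 to 11.98% in WT, 6.84 to 8.65% in shTST and 10.8 to 11.7% in OE-TST. The 9 hepatocyte markers summed to 21720 to 28940 CPM (reads per 1e6, scaled by the TMM method over all 12 libraries). The 8 markers of other cell types summed to 25.4 to 28.97 CPM in WT, 20.7 to 22.5 in shTST and 21.8 to 23.96 in OE-TST, most of it PDGFRB, while the leukocyte marker PTPRC had 1 count in all 12 libraries. TST itself was 47.2, 47.5, 52.8 and 48.5 CPM in WT, 33.0, 33.6, 36.6 and 33.5 in shTST and 51.8, 56.0, 61.6 and 62.1 in OE-TST. It fell with shTST (log2 fold change −0.52, standard error 0.055, adjusted p = 3.2e-06). With OE-TST it was called higher by only 0.24 (standard error 0.062, adjusted p = 0.00384), 1 OE-TST library lay within the WT range, and the call was lost after correction for gene length (adjusted p = 0.201). Whether reads of the codon-optimized copy can be counted on the TST gene is not given in the sources used here. At the protein level, the paper reports western blots of both lines. It also reports more breakdown of added KCN with TST overexpression and less with silencing.

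ESF1 lies on the minus strand of chromosome 20 (chr20:13714322-13784886, GRCh38) with 14 merged exons of 3216 bases in all, none shared with another annotated gene. Its transcript was 92.6, 94.7, 100.5 and 96.7 CPM in WT. It was 116.9, 110.2, 119.9 and 98.8 CPM in shTST and 147.5, 165.1, 174.0 and 158.4 CPM in OE-TST. Every OE-TST library was above every library of the other groups, while 1 shTST library lay within the WT range. The log2 fold change of OE-TST over WT was 0.75 (standard error 0.053), the largest of the 51 genes, and that of OE-TST over shTST was 0.53 (standard error 0.056). Leaving out any 1 library kept the OE-TST value over WT between 0.71 and 0.79, and after length correction it was 0.69. In shTST against WT, a comparison that shares the WT libraries with the one that chose the gene, ESF1 was called higher with a log2 fold change of 0.21 (standard error 0.053, adjusted p = 0.00785). The gene starts on either side of ESF1 belong to TASP1, a protease, and NDUFAF5, an assembly factor of respiratory complex I. In OE-TST, TASP1 fell by 0.27 (standard error 0.087, adjusted p = 0.0168), a call lost without WT replicate 1 or OE-TST replicate 4 (adjusted p up to 0.0813). NDUFAF5 had a log2 fold change of 0.18 as counted (standard error 0.078, adjusted p = 0.0813) and was called higher after length correction (0.27, adjusted p = 0.00749). The start of ESF1 carries CACGTG, the E-box bound by MYC and related factors. It is shown here with the E-boxes of members that were higher (NOP10, FBL, RRP9, PES1) or lower (UTP20, NOP14, NOL6) in OE-TST, as windows of 30 bases from RefSeq (GRCh38.p14) with the E-box in capitals.
ESF1: gggtgtgagcccCACGTGaggcttggtagg
NOP10: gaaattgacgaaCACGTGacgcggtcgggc
FBL: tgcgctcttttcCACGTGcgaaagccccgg
RRP9: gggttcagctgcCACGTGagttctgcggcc
PES1: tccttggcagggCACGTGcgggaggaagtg
UTP20: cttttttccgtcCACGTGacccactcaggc
NOP14: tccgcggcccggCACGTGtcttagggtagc
NOL6: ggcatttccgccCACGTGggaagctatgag
The first base of the E-box, counted from the RefSeq transcription start as 1, was at 13 in ESF1 (chr20:13784890-13784919, minus strand), 7 in FBL (chr19:39846356-39846385, minus), 14 in PES1 (chr22:30591880-30591909, minus), 16 in NOP14 (chr4:2963374-2963403, minus) and 14 in NOL6 (chr9:33473894-33473923, minus). It was at −11 in NOP10 (chr15:34343130-34343159, minus), −5 in RRP9 (chr3:51941892-51941921, minus) and −10 in UTP20 (chr12:101280083-101280112, plus). In the annotation used for counting, ESF1 and NOP14 start at 13784886 and 2963385, so that there their E-boxes lie before the start. NOP10 and RRP9 start there at 34343177 and 51941941, so that their E-boxes lie after the start. The same letters thus stood at the start of genes whose transcripts were higher and of genes whose transcripts were lower as counted. After length correction NOP10, FBL and RRP9 were no longer called higher. The windows are a selection. Not shown are MRTO4, GNL2, EBNA1BP2 and UTP14A, which also hold an E-box in the promoter and were higher as counted. Of these, MRTO4, GNL2 and EBNA1BP2 kept their calls after length correction. The PES1 call was lost without the filter on low counts and without some single libraries, as given below.

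The members were abundant transcripts. Their median was 103 CPM against 17.5 for all genes tested, and 50 of the 51 had a mean of at least 20 CPM. Per length, NPM1 had the highest WT level of the genes described here (440 RPKM, which is CPM per kilobase of exonic length), followed by NCL (287), FBL (167) and NOP10 (105), whereas POLR1A (16.7), HEATR1 (10.2) and UTP20 (5.03) were far lower. The exception in CPM was the RNA helicase DDX47, with 407 counts in all 12 libraries and 0.475 to 1.60 CPM, so no change could be detected in it at this depth. Of its exonic bases, 36.5% overlap APOLD1 on the same strand. All 51 members passed the filter on low counts in every comparison.

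With OE-TST, the other 50 members moved in both directions: 20 were higher, 7 lower and 23 not called. Over all 14421 genes tested, 33.9% were called (15.7% higher and 18.2% lower), and among the 6795 genes with at least 20 CPM the share was 48.9% (23.6% higher and 25.4% lower). The 27 members called are 54% of the 50, near the 48.9% among genes with at least 20 CPM. That floor is not a match of abundance, as the members' median was 103 CPM. By direction, more members were higher than lower, while that background was split almost evenly. This difference in direction was not tested. The members' median log2 fold change was 0.083, against 0.0019 for all genes tested. In 21 of the other 50 members every OE-TST library was above every WT library, and in 7 every one was below, while 14.2% and 16.2% of all genes were separated in this way.

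With shTST, 12 of the 51 members were higher, 5 were lower and 34 were not called. The background was 16.1% of 14584 genes (6.69% higher and 9.4% lower), and 24.5% of genes with at least 20 CPM (9.33% higher and 15.2% lower). All fold changes were small, from −0.25 to 0.25 on the log2 scale with a median of 0.051. In 13 members every shTST library was above every WT library and in 5 every one was below, while 8.37% and 10.8% of all genes were separated in this way. The number of members called lower was 3 when any of WT replicates 2 and 4 or shTST replicates 1, 3 and 4 was left out.

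**Figure D1:**
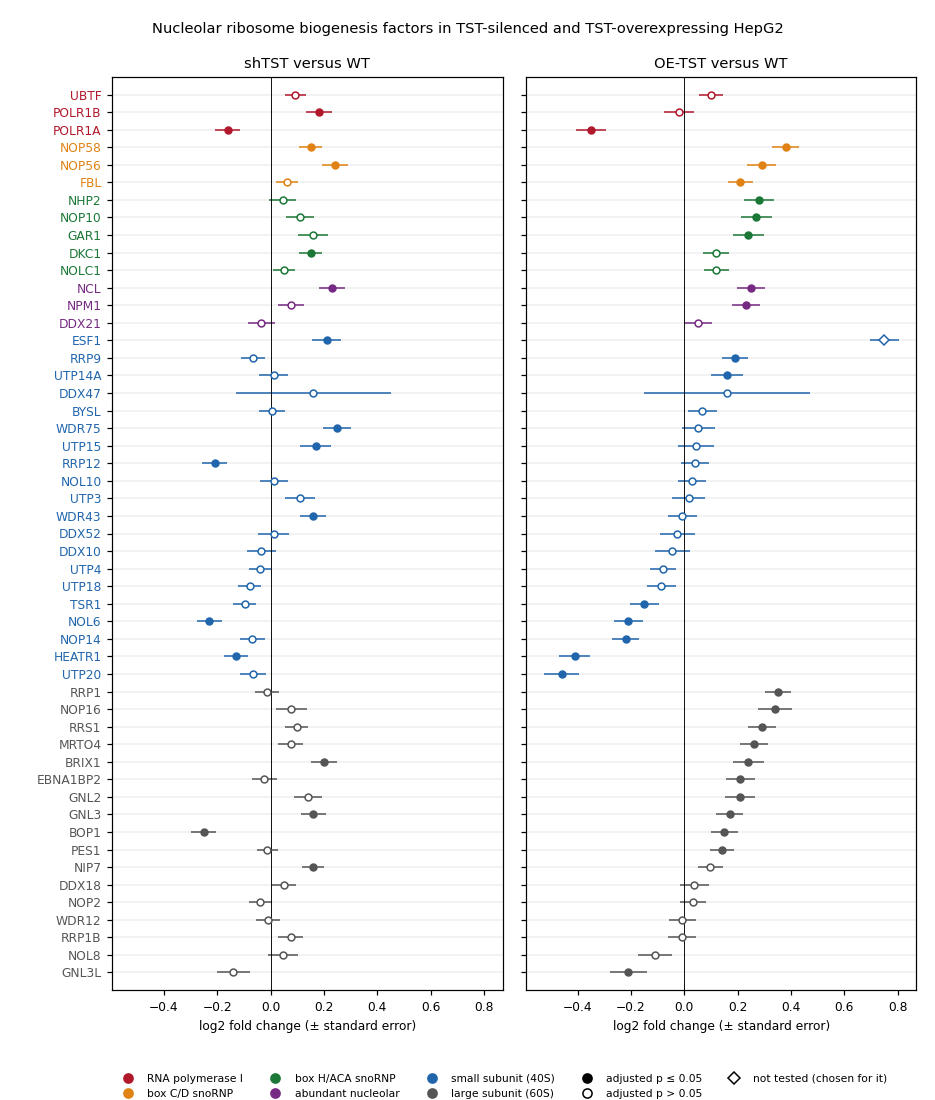
Log2 fold change with standard error (horizontal axis) of each of the 51 members (vertical axis, coloured by role) for shTST and OE-TST against WT, from edgeR fits of 8 libraries each. Filled points passed an adjusted p of 0.05, and the diamond is ESF1 in OE-TST (0.75), which was chosen for that value and not tested. With OE-TST the box C/D and most 60S points lie to the right of 0 and UTP20, HEATR1 and POLR1A are farthest to the left, while all shTST points lie between −0.25 and 0.25.

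The box C/D snoRNP proteins rose together in OE-TST. FBL, the methyltransferase of the particle, and NOP56 and NOP58, its core scaffold, were all 3 called higher. NOP58 was 151.2, 143.9, 154.3 and 149.5 CPM in WT, 165.5, 160.7, 177.0 and 159.5 in shTST and 188.4, 206.3, 203.0 and 183.4 in OE-TST. None of the 3 groups overlapped for NOP58, with shTST between the others. Its log2 fold change was 0.38 with OE-TST (standard error 0.05, adjusted p = 3.34e-06) and 0.15 with shTST (standard error 0.044, adjusted p = 0.0247). In shTST it failed the threshold with WT replicate 2 or 4 or shTST replicate 3 left out (adjusted p up to 0.0887) and without the filter on low counts. NOP56 was 362.1, 333.5, 366.9 and 334.6 CPM in WT, 421.5, 383.2, 441.4 and 402.8 in shTST and 382.3, 440.6, 438.1 and 444.4 in OE-TST. Both engineered lines lay above WT and overlapped each other, with log2 fold changes of 0.24 for shTST (adjusted p = 0.00214) and 0.29 for OE-TST (adjusted p = 0.00023). FBL rose by 0.21 in OE-TST (standard error 0.047, adjusted p = 0.00131), but after length correction the value was 0.082 (adjusted p = 0.161). With shTST the log2 fold change of FBL was 0.062 and was not called.

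Of the 5 box H/ACA proteins, NHP2 (0.28, adjusted p = 0.00062), NOP10 (0.27, adjusted p = 0.000644) and GAR1 (0.24, adjusted p = 0.0025) rose in OE-TST. All 3 are short core proteins of the particle with a short exonic length, and in each every OE-TST library was above WT. After length correction none of the 5 was called, with values of 0.11, 0.088 and 0.098 for these 3. DKC1, the pseudouridine synthase itself, rose with shTST (0.15, standard error 0.042, adjusted p = 0.0191), from 160.3 to 175.4 CPM in WT to 180.2 to 187.1 in shTST. That call was lost without WT replicate 4 (adjusted p = 0.0585) and without the filter on low counts. With OE-TST the value of DKC1 was 0.12 (adjusted p = 0.0744), and the direct comparison of OE-TST with shTST gave −0.031 (standard error 0.044, adjusted p = 0.637). NOLC1, a snoRNP chaperone, was not called in either line.

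The abundant nucleolar proteins NCL and NPM1 had the most counts of the set. NCL, nucleolin, was 2077, 1942, 1932 and 1990 CPM in WT, 2412, 2272, 2392 and 2237 in shTST and 2370, 2425, 2371 and 2301 in OE-TST. All 8 libraries of the engineered lines were above WT, with log2 fold changes of 0.23 for shTST (standard error 0.049, adjusted p = 0.00302) and 0.25 for OE-TST (standard error 0.052, adjusted p = 0.000599). NPM1, nucleophosmin, rose in OE-TST by 0.23 (standard error 0.053, adjusted p = 0.0016). With shTST its value was 0.076 (adjusted p = 0.309), and the direct comparison of OE-TST with shTST gave 0.15 (standard error 0.046, adjusted p = 0.0122). By symbol, 49 genes are named as copies of NPM1, and they drew 1.06% of the counts of NPM1 and these copies together. DDX21, a nucleolar RNA helicase, was called in neither line. All 51 members summed to 8856 to 9176 CPM in WT, 9372 to 9758 in shTST and 9844 to 10220 in OE-TST. Without NCL and NPM1 the sums were 5321 to 5372, 5413 to 5522 and 5614 to 5858 CPM, and in both sums, which include ESF1, the 3 groups did not overlap. As a share of unscaled counts the members took 0.881 to 0.947% in WT, 0.975 to 0.991% in shTST and 0.945 to 0.993% in OE-TST. There shTST still lay above WT, but OE-TST overlapped both other groups. The separation of OE-TST was thus seen with TMM scaling and not in unscaled counts.

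The RNA polymerase I genes did not move together. POLR1A, the largest catalytic subunit, was 219.3, 241.2, 208.9 and 232.5 CPM in WT, 197.7, 211.9, 198.6 and 200.1 in shTST and 189.5, 183.0, 170.1 and 165.7 in OE-TST. Every OE-TST library was below the other groups. The log2 fold change was −0.35 with OE-TST (standard error 0.055, adjusted p = 3.21e-05) and −0.16 with shTST (standard error 0.047, adjusted p = 0.0234), where 1 shTST library lay within the WT range. The shTST call was lost without WT replicate 2 or 4 or shTST replicate 1, 3 or 4 (adjusted p up to 0.0894). POLR1B, the second-largest subunit, rose with shTST (0.18, standard error 0.049, adjusted p = 0.017, and 0.0657 without shTST replicate 1), had a value of −0.019 with OE-TST, and was lower in OE-TST than in shTST (−0.20, standard error 0.052, adjusted p = 0.00546). UBTF, which binds along the rRNA genes, was not called in either line as counted, and with length correction it was called higher in OE-TST (0.19, adjusted p = 0.00257).

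**Figure D2:**
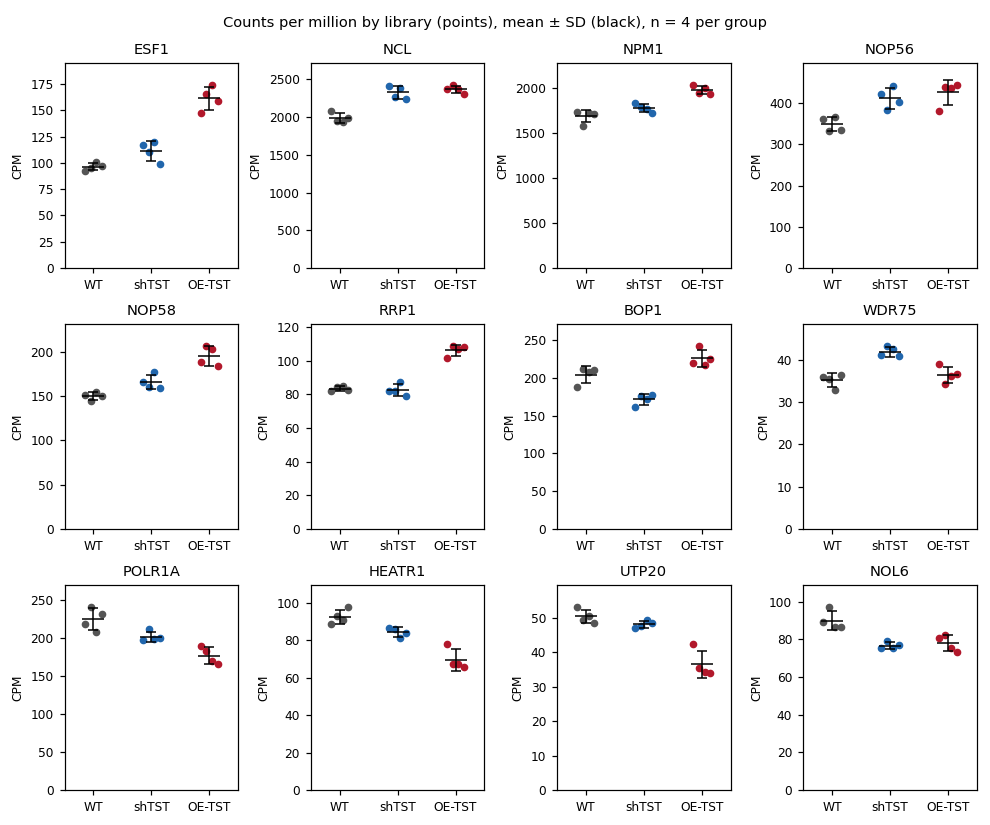
CPM (vertical axis, from 0) of 12 members in each of the 12 libraries (points) with group mean and SD (black, n = 4) for WT, shTST and OE-TST. ESF1 is 147.5 to 174.0 CPM in OE-TST against 92.6 to 100.5 in WT, NCL is raised in both engineered lines, BOP1 is lowest in shTST, and UTP20 and HEATR1 are lowest in OE-TST.

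Of the 19 small-subunit factors other than ESF1, 5 were lower and 2 higher in OE-TST (36.8% called). Among genes with at least 20 CPM 25.4% were lower and 23.6% higher, so the share lower was near that background. The furthest values were those of UTP20 and HEATR1. UTP20, a large scaffold protein of the processome, was 53.1, 49.3, 50.6 and 48.6 CPM in WT, 47.0, 47.6, 49.3 and 48.6 in shTST and 42.3, 35.5, 34.4 and 33.9 in OE-TST. Every OE-TST library was below all others, with a log2 fold change of −0.46 (standard error 0.067, adjusted p = 1.22e-05), and WT and shTST overlapped. HEATR1, which links the processome to rRNA transcription, was 88.8, 93.1, 90.8 and 97.7 CPM in WT, 86.7, 86.1, 81.1 and 83.8 in shTST and 78.3, 67.2, 67.2 and 65.7 in OE-TST. Its log2 fold change was −0.41 with OE-TST (standard error 0.058, adjusted p = 9.1e-06). With shTST it was −0.13 (adjusted p = 0.0466), a call lost in 13 of the 17 alternatives and held, of the single omissions, only without WT replicate 1. LGALS8 covers 23.2% of the exonic bases of HEATR1 on the opposite strand, and whether counting used strand is not given in the sources used here. In UTP20, HEATR1 and POLR1A alike, OE-TST replicate 1 was the highest of its group. NOP14, a processome scaffold, fell by 0.22 (standard error 0.05, adjusted p = 0.00125), NOL6 by 0.21 (standard error 0.055, adjusted p = 0.00495) and TSR1, which acts on the late 40S precursor, by 0.15 (standard error 0.054, adjusted p = 0.0321). NOP14 shares 17.1% of its exonic bases with its antisense RNA, and the TSR1 call was lost after length correction (adjusted p = 0.156), with upper-quartile scaling, and without WT replicate 2 or 4 or OE-TST replicate 3 or 4 (adjusted p up to 0.132). The 2 that rose were RRP9, a protein of the U3 snoRNP (0.19, adjusted p = 0.00542), and UTP14A (0.16, adjusted p = 0.0478). After length correction RRP9 was at 0.02 (adjusted p = 0.796) and UTP14A at 0.15 (adjusted p = 0.0527), and the UTP14A call was also lost with limma-voom and without the filter. Of the single omissions it held only without WT replicate 4 or OE-TST replicate 1.

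With shTST, 3 of these 19 rose and 3 fell, against 9.33% higher and 15.2% lower among genes with at least 20 CPM. The 3 that rose, WDR75 (0.25, adjusted p = 0.00244), UTP15 (0.17, adjusted p = 0.0442) and WDR43 (0.16, adjusted p = 0.0245), are subunits of the early UTP-A complex. Its other subunits in the set were UTP4, not called in shTST (108.5 ± 0.458 CPM in WT and 105.5 ± 2.96 in shTST, SD, n = 4; adjusted p = 0.568), and HEATR1, which was called lower. The complex was picked out after the values had been seen. The WDR43 call was lost without WT replicate 3 or 4 or shTST replicate 1 or 4 (adjusted p up to 0.0967), and of the single omissions the UTP15 call held only without WT replicate 3 or shTST replicate 3. WDR75 was 36.0, 35.4, 32.9 and 36.4 CPM in WT, 41.0, 43.2, 42.4 and 40.9 in shTST and 38.9, 34.2, 36.1 and 36.6 in OE-TST. Every shTST library was above both other groups, and WDR75 was lower in OE-TST than in shTST by a log2 fold change of −0.20 (standard error 0.055, adjusted p = 0.00687). The 3 that fell were NOL6 (−0.23, adjusted p = 0.00199), RRP12, an export factor (−0.21, adjusted p = 0.00501), and HEATR1. NOL6 was 89.4, 97.1, 86.6 and 86.6 CPM in WT, 75.3, 79.1, 75.4 and 76.7 in shTST and 80.8, 82.4, 75.6 and 73.1 in OE-TST. Both lines lay below WT for NOL6 and overlapped each other. RRP12 was higher in OE-TST than in shTST by 0.25 (standard error 0.05, adjusted p = 0.000412).

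The 60S assembly factors gave the largest group that rose in OE-TST, with 10 of 17 higher, 1 lower and 6 not called, against 23.6% higher and 25.4% lower among genes with at least 20 CPM. RRP1 was 81.8, 84.4, 85.0 and 82.3 CPM in WT, 81.8, 81.7, 87.7 and 79.2 in shTST and 101.6, 108.7, 106.9 and 108.1 in OE-TST. It stood above both other groups in every OE-TST library and rose by 0.35 as counted (standard error 0.048, adjusted p = 6.36e-06) and by 0.35 after length correction (adjusted p = 4.18e-06). NOP16 (0.34), RRS1, which brings in the 5S RNA particle (0.29), MRTO4, a placeholder at the ribosomal stalk (0.26), BRIX1 (0.24), EBNA1BP2 (0.21) and the nucleolar GTPase GNL2 (0.21) also rose, with adjusted p from 0.000115 to 0.00578, and all 6 kept their calls after length correction. GNL3, the GTPase nucleostemin, rose in OE-TST by 0.17 (adjusted p = 0.0108) and in shTST by 0.16 (adjusted p = 0.0232), and its relative GNL3L fell in OE-TST by 0.21 (adjusted p = 0.0226). The OE-TST call of GNL3 was lost after length correction (0.12, adjusted p = 0.0588). The shTST call of GNL3 was lost without WT replicate 2 or 4 or shTST replicate 1 or 3 (adjusted p up to 0.081), and the GNL3L call without WT replicate 2 or OE-TST replicate 2, 3 or 4 (adjusted p up to 0.0729).

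BOP1 and PES1 form the PeBoW complex with WDR12. BOP1 was 187.4, 211.3, 207.4 and 210.5 CPM in WT, 161.2, 175.7, 171.5 and 177.7 in shTST and 219.4, 242.0, 217.5 and 225.1 in OE-TST. The 3 groups did not overlap, with shTST lowest and OE-TST highest. BOP1 fell in shTST by 0.25 (standard error 0.047, adjusted p = 0.00099) and rose in OE-TST by 0.15 (standard error 0.051, adjusted p = 0.0288), the only member called in opposite directions. The direct difference between the lines was 0.40 (standard error 0.049, adjusted p = 2.13e-06) and 0.37 after length correction. The call against WT in OE-TST was lost after length correction (adjusted p = 0.0672), without the filter on low counts, and without WT replicate 1 or OE-TST replicate 2 or 4 (adjusted p up to 0.134). PES1 rose in OE-TST by 0.14 (adjusted p = 0.0171, and up to 0.0565 without WT replicate 1 or OE-TST replicate 3 and 0.111 without the filter on low counts) and was −0.013 in shTST, and WDR12 was not called in either line.

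Read side by side over the same WT libraries, which both comparisons share, NOP56, NOP58, NCL, BRIX1 and GNL3 were called higher in both lines and POLR1A, HEATR1 and NOL6 lower in both. The 14 members called higher with OE-TST alone were FBL, NHP2, NOP10, GAR1, NPM1, UTP14A, RRP9, NOP16, PES1, RRP1, RRS1, GNL2, EBNA1BP2 and MRTO4, and the 4 called lower were NOP14, UTP20, TSR1 and GNL3L. POLR1B, DKC1, UTP15, WDR43, WDR75 and NIP7 were called higher and RRP12 lower with shTST alone, and 16 members were called in neither. The share of all genes called in both lines was not counted, so these patterns only describe the members. A difference between the lines was shown only where the direct comparison passed. In it, 15 of the other 50 members were higher and 7 lower in OE-TST than in shTST, against a background of 33% of 14883 genes (16.1% higher and 16.9% lower), and 50.3% of genes with at least 20 CPM (26.8% higher and 23.5% lower). RRP1 (0.36), RRP9 (0.25), NOP58 (0.24) and NHP2 (0.23) were among those higher and UTP20 (−0.40) and HEATR1 (−0.28) among those lower. After length correction RRP9 (adjusted p = 0.0776) and NHP2 (adjusted p = 0.171) were no longer called.

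**Figure D3:**
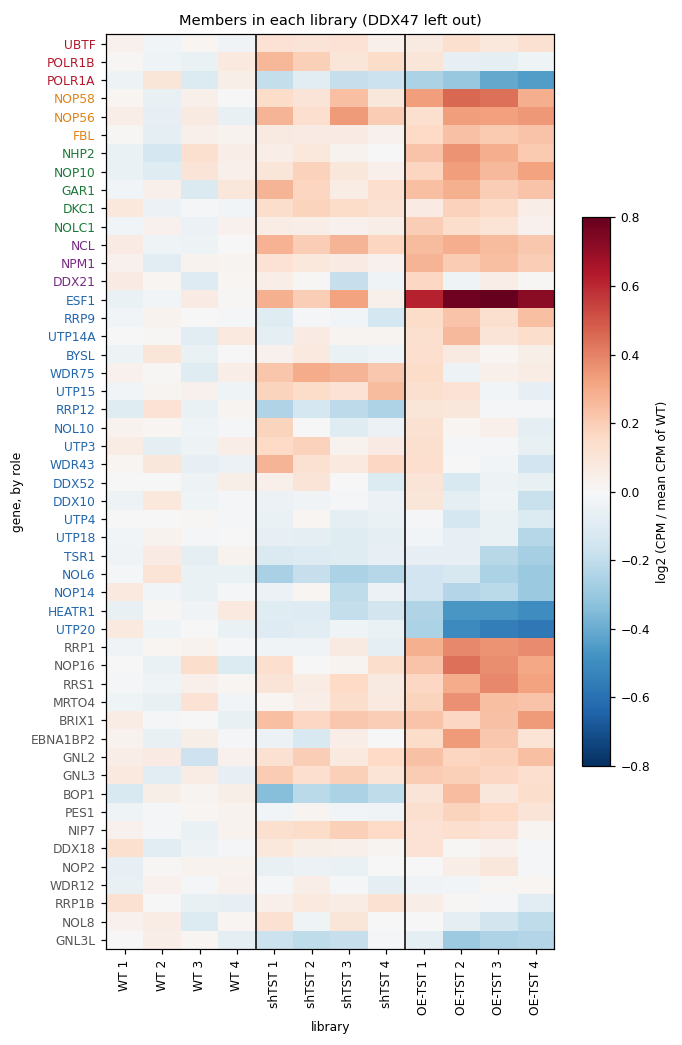
Log2 ratio of CPM to the WT mean (colour, red above and blue below, limits −0.8 and 0.8) for 50 members (rows, label colour by role; DDX47 left out for its low counts) in the 12 libraries (columns). ESF1 is the darkest red in the 4 OE-TST libraries, and POLR1A, HEATR1 and UTP20 are blue there, palest in OE-TST replicate 1.

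Exonic length, which covers all annotated exons of a gene and can exceed the length of a transcript, moved with the OE-TST changes. Across all 14421 genes tested, the rank correlation of the log2 fold change with exonic length was −0.404, and across the 51 members it was −0.533 (genes are not independent replicates). Over all genes the median was 0.15 up to 3 kb, −0.0037 from 3 to 6 kb and −0.12 over 6 kb. For the members other than ESF1 it was 0.22, 0.12 and −0.019 in 12, 25 and 13 genes. The members that fell most are long, with 13519 exonic bases in POLR1A, 10024 in UTP20 and 9049 in HEATR1, and NOP10, with 554, is the shortest. With a length trend removed from each library, the counts among the other 50 members became 15 higher and 7 lower, against 14.2% and 14.3% of all genes. Of the 6795 genes with at least 20 CPM, 1515 were higher and 1293 lower after this correction. UTP20 (−0.32, adjusted p = 0.000365), HEATR1 (−0.28, adjusted p = 0.000255) and POLR1A (−0.16, adjusted p = 0.0121) remained lower. NOP56 (0.34), NCL (0.34) and NOP58 (0.33) remained higher. In the direct comparison the number higher was 15 as counted and 8 after the correction, with 7 lower in both. After the correction 14.9% of all genes were higher and 13% lower. Among the 6795 genes with at least 20 CPM these counts were 1754 and 1191. With shTST the rank correlation was −0.090 over all genes and −0.153 over the members. The corrected counts were 13 higher and 4 lower, against 8.05% and 9.88% of all genes. Of the 6795 genes with at least 20 CPM, 774 were then higher and 1076 lower.

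**Figure D4:**
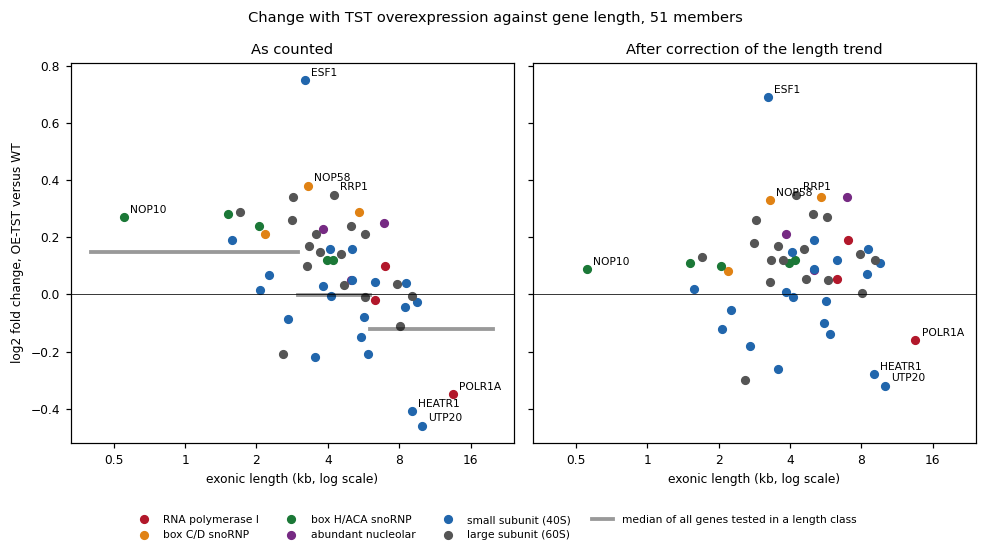
Log2 fold change of OE-TST over WT (vertical axis) against exonic length in kb (horizontal axis, log scale) for the 51 members, coloured by role, as counted (left) and after the length correction (right). Grey bars are the medians of all genes tested, 0.15 up to 3 kb, −0.0037 from 3 to 6 kb and −0.12 over 6 kb. ESF1 stands apart from genes of its length in both panels, at 0.75 and 0.69.

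A further 134 ribosome biogenesis factors were listed by function, also with earlier results of these data known. With OE-TST 51 were higher and 11 lower (46.3% called, median 0.12). The background was 33.9% of all genes tested and 48.9% of genes with at least 20 CPM (23.6% higher and 25.4% lower). Some of the 134, such as TAF1A, were below 20 CPM. With shTST 14 were higher and 4 lower (13.4% called, median 0.027), against 16.1% of all genes tested and 33.3% of the 51 members. Among genes with at least 20 CPM the share was 24.5% (9.33% higher and 15.2% lower). With OE-TST the higher ones included TTF1, the terminator factor of RNA polymerase I (0.48, adjusted p = 0.000194), the exosome subunit EXOSC9 (0.39, adjusted p = 3.75e-05) and NPM3, a relative of NPM1 (0.36, adjusted p = 2.82e-05). MDN1, the very large ATPase of 60S assembly (−0.54, adjusted p = 3.89e-07), URB1 (−0.57, adjusted p = 1.21e-06), PDCD11 (−0.28, adjusted p = 0.000545) and the RNA helicase MTREX (−0.23, adjusted p = 0.00772) were lower. The MTREX call was lost after length correction (adjusted p = 0.0558). With shTST, TGS1, which modifies the cap of snoRNAs (0.32, adjusted p = 0.000395), TAF1A (0.39, adjusted p = 0.037), NGDN (0.17, adjusted p = 0.0104) and GTPBP4 (0.16, adjusted p = 0.017) were higher and TBL3 (−0.27, adjusted p = 0.000526) was lower. The TAF1A call held, of the single omissions, only with WT replicate 3 or shTST replicate 2 or 3 left out, and the GTPBP4 call was lost without shTST replicate 1 or 4 (adjusted p up to 0.0605). MYC, a transcription factor known to drive many of these genes, was itself lower in both lines, by −0.17 in shTST (standard error 0.045, adjusted p = 0.0116, and 0.0543 without shTST replicate 2) and −0.38 in OE-TST (standard error 0.049, adjusted p = 2.94e-06). MYC was 161.8, 158.1, 172.4 and 153.8 CPM in WT, 147.8, 135.5, 142.2 and 147.2 in shTST and 124.8, 127.7, 122.4 and 121.4 in OE-TST, with no overlap among the 3 groups.

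Promoters of 42 members were matched in RefSeq (GRCh38.p14, 250 bases before and 50 after the start). The E-box CACGTG, which reads the same on both strands, was in 18 of the 42 (42.9%). It was in 29 of 118 promoters of the other biogenesis factors (24.6%), in 1074 of 10526 promoters of genes tested (10.2%) and in 7.43% of all 27305 promoters. The members held 20 E-boxes, and 16 of these (80%) began within 40 bases of the start, against 30.8% of those in genes tested. Of the E-box members, 8 were higher and 3 lower in OE-TST among the 17 other than ESF1, and 9 were higher and 4 lower among the 24 matched members without it. With shTST these counts were 2 higher and 1 lower of 18, and 9 higher and 2 lower of 24. Of all genes tested, 15.7% were higher and 18.2% lower in OE-TST, and 6.69% and 9.4% in shTST. Among genes with at least 20 CPM these shares were 23.6% and 25.4% in OE-TST and 9.33% and 15.2% in shTST. CCGGAA, searched on both strands as were the next 3 motifs, was in 45.2% of members and 30.2% of genes tested, and CCAAT in 40.5% and 36.9%. The NRF1 motif, in ESF1 among others, was in 9.5% and 2.33%, and the YY1 motif in 4.8% and 2.89%. A match of letters is a description and shows no binding. UTP20 had the largest decrease of the set in OE-TST, and its 250 bases before the start (chr12:101279855-101280104, plus strand) are printed with the E-box in capitals.
UTP20: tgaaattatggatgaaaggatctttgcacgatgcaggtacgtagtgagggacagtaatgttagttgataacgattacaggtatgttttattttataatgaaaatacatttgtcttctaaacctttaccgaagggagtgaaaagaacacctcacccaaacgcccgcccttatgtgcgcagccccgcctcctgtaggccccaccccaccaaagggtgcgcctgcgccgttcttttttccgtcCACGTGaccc

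**Figure D5:**
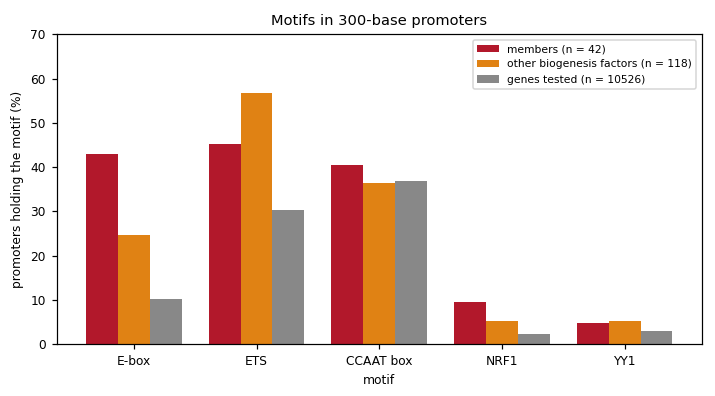
Share of RefSeq promoters (vertical axis, %) that hold each of 5 motifs (horizontal axis) for 42 members, 118 other ribosome biogenesis factors and 10526 genes tested. The E-box is in 42.9, 24.6 and 10.2% of them, and the CCAAT box in 40.5, 36.4 and 36.9%.

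Several members are hosts of small nucleolar RNA genes. NOP56, NOP58, DKC1, NCL, WDR43, TSR1 and GNL3 hold 25 annotated snoRNA genes within their spans, 5 of them in NOP56. With shTST 6 of these 7 were higher and none lower (median 0.16), and 6 of the 44 members without one were higher and 5 lower (median 0.028), against 6.69% of all genes higher and 9.4% lower. Among the 6, the calls of NOP58, DKC1, GNL3 and WDR43 were each lost when single libraries were left out. With OE-TST 4 of the 7 were higher and 1 was lower, against 16 and 6 of 43, with 15.7% of all genes higher and 18.2% lower. This grouping was made after the values had been seen and was not tested.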

How the data were processed

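RNA of 12 HepG2 libraries (4 WT, 4 shTST, 4 OE-TST) was analysed. The authors deposited raw read counts per Ensembl gene, not normalized. The submitters' processing notes name Trimmomatic 0.36, STAR 2.5.2b, featureCounts, Subread 1.5.2 and GRCh38. Strand use and annotation release are not given in the sources used here; reads shared by overlapping genes could be lost. Groups and replicate numbers came from the labels, glycine and time from the methods.

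Counts were filtered (filterByExpr), scaled by TMM and fitted in edgeR, whose quasi-likelihood test gave every p-value, adjusted by Benjamini-Hochberg over all genes tested (threshold 0.05). The fits against WT used the 8 libraries compared and the fit of OE-TST against shTST all 12. The standard error is the log2 fold change over the square root of F. The biological coefficient of variation was 5.85% (shTST) and 6.41% (OE-TST). The length correction removed a lowess trend (span 0.3) of log2 counts on exonic length in each library. The counts of 22911380 to 45120508 per library set the counting error. No replicate pair agreed within sampling noise. The main fits did not pair libraries by replicate number. The code was tested on simulated counts. Software was R 4.3.3, edgeR 4.0.16, limma 3.58.1, DESeq2 1.42.0, Python 3.11.15, pandas 2.3.3 and matplotlib 3.10.9.

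Members and lists were chosen with earlier results of these data known. Genes named with full values were ESF1, TST and MYC; by role and comparison with WT the member with the smallest p in each direction; members called in both; POLR1A, FBL, DKC1, NCL and NPM1; the neighbours of ESF1; and the same smallest-p choice among 134 other factors. Other members were named after their values were seen. Alternatives were DESeq2, limma-voom, RLE and upper-quartile scaling, no filter, all 12 libraries (or only 8 for the direct comparison), length correction, the replicate block with and without it, and each library left out.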

Additional observations from a re-analysis of the deposited data

Results flagged for a closer look

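In 11 of 111 groups of 4 libraries, the highest or lowest library stood apart from the other 3 by Dixon's 95% criterion, where chance flags about 1 group in 20. In WT, BOP1 was lowest in replicate 1 (187.4 CPM), NPM1 lowest in replicate 2 (1579 CPM), URB1 highest in replicate 2 (69.4 CPM) and NOL7 lowest in replicate 2 (140.2 CPM). In shTST, TST was highest in replicate 3 (36.6 CPM), POLR1A highest in replicate 2 (211.9 CPM), GNL3L highest in replicate 4 (24.8 CPM) and FBL lowest in replicate 4 (372.9 CPM). In OE-TST, NOP56 was lowest in replicate 1 (382.3 CPM), HEATR1 highest in replicate 1 (78.3 CPM) and NOL7 highest in replicate 2 (188.8 CPM).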

How the results depend on the processing

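Of 1836 results for named genes under the 17 alternatives of each comparison, 1728 kept their direction and side of the threshold, 91 lost the threshold, 17 passed it and 0 reversed. The 1728 include ESF1 in OE-TST over WT and over shTST, where it had no test. There it was counted as kept when its log2 fold change moved by less than the SD within groups. Counts of members called stayed within 1.5 times of the reported counts in all alternatives, except 8 higher in OE-TST over shTST with length correction and the shTST calls lower given below. The members' median log2 fold change in shTST was 0.071 with upper-quartile scaling and 0.039 without the filter. In OE-TST it was 0.11 with upper-quartile scaling, 0.06 without the filter, 0.1 with length correction and 0.11 with length correction and the block. In OE-TST over shTST it was 0.00057 without the filter and 0.057 with length correction, with or without the block. The cause was not tested.

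With 1 library left out, all genes in shTST gave 644 to 1021 higher and 869 to 1375 lower, both lowest without shTST replicate 1, members 8 to 11 higher and 3 to 5 lower, and a median of 0.037 to 0.062. OE-TST gave 18 to 21 members higher, 5 to 7 lower and a median of 0.051 to 0.092, lowest without WT replicate 3. The direct comparison gave 13 to 15 higher, 5 to 8 lower and a median of 0.00079 (without shTST replicate 4) to 0.046 (without shTST replicate 1).

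Libraries with the same replicate number correlated by −0.053 to 0.080 in their deviations, so any pairing by number was weak and is not settled. WT replicates 1, 2 and 3 each correlated best with the shTST library of the same number (0.032, 0.044 and 0.080), and WT replicate 4 did not. Against OE-TST, this held only for replicate 1 of WT and of shTST. With the replicate block, 1247 of all genes were higher and 1733 lower in shTST, against 975 and 1371 without it. With the replicate block, shTST had 14 members higher and 5 lower, OE-TST 21 and 7 without ESF1, and the direct comparison 15 and 8. Depth limits DDX47 most.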
